A study of Rattus norvegicus with 12 samples.

Results

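The actin and tropomyosin genes were followed through RNA-seq of rat PAC1 cells, a smooth muscle cell line derived from pulmonary artery, in which RBPMS, RBFOX2 or QKI had been depleted by siRNA. The members were taken by gene symbol, as the 6 actin genes Acta1, Acta2, Actb, Actc1, Actg1 and Actg2 and the 4 tropomyosin genes Tpm1, Tpm2, Tpm3 and Tpm4. They are 10 of the 33294 genes in the count table, and were chosen with earlier results of these data known. The design had 4 groups of 3 libraries, namely cells given the negative control siRNA C2, RBPMS knockdown (KD), RBFOX2 KD and QKI KD, and all of them were the same line in serum-containing medium, split weekly to favour the more differentiated state. Each group received 90 pmol of siRNA by reverse transfection and a repeat of it, 24 h later with harvest at 48 h after that per the labels, whereas the study's methods give later times, and this difference was not resolved. The 3 proteins are RNA-binding regulators of splicing, and QKI is encoded by the gene listed as Qk. Every culture is the same established line, so the replicates are separate samples of it and not separate animals. The study reports that its differentiated control cells had a lower degree of differentiation in this experiment than in its other RNA-seq experiment.

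Actin is the protein of the thin filament, and vertebrates carry muscle actin genes beside the cytoplasmic actin genes Actb and Actg1 that non-muscle cells use for their cortex, stress fibres and motility. Acta2 encodes the alpha actin typical of vascular smooth muscle, Actg2 the gamma actin typical of visceral smooth muscle, and Acta1 and Actc1 the alpha actins of skeletal and cardiac muscle. Tropomyosins are coiled-coil dimers that lie along actin filaments and set which other proteins can bind them; each Tpm gene makes several isoforms by alternative promoters and splicing, and a count per gene does not separate them. Long muscle-type tropomyosin of smooth muscle comes mainly from Tpm1 and Tpm2, while Tpm3 and Tpm4 supply much of the cytoskeletal pool. Transcription of many of these genes is driven by serum response factor (SRF), which binds a DNA element called the CArG box together with the coactivators myocardin or the myocardin-related factors.

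Some of the stretches of promoter that hold CArG box letters are printed because SRF itself was measured in these libraries. RefSeq windows on the GRCr8 assembly were found for 9 of the 10 members (all but Actb, with 3 windows for Tpm3), and the 250 bases before the start site were searched on both strands. An exact CArG box was found in 2 members, Acta1 and Actg1, and 1.497% of all 33469 windows of that length held one. With at most 1 mismatch allowed, 6 members had a match (Acta1, Acta2, Actc1, Actg1, Tpm1 and Tpm3), against 18.749% of all windows. The letters CATTCC or their reverse complement, the core of another muscle promoter element, were present in the windows of Acta1, Acta2 and Tpm1 and in 12.062% of all windows, and no match of either kind was found for Actg2, Tpm2 and Tpm4. The lines below give 40 bases each, on the strand of the gene, with the box in capitals. The first and the last are exact matches and the 3 between them have 1 mismatch. Further matches with 1 mismatch in Acta1 and Actc1, and all those of Tpm1 and Tpm3, are not printed.
Acta1, chr19:68784264-68784303 (minus strand), box 94 to 85 bases before the start: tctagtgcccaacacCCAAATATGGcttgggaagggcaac
Acta2, chr1:241172613-241172652 (minus strand), box 134 to 125 bases before the start: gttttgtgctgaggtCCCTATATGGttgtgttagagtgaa
Acta2, chr1:241172563-241172602 (minus strand), box 84 to 75 bases before the start: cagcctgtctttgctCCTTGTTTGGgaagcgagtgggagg
Actc1, chr3:121271929-121271968 (minus strand), box 126 to 117 bases before the start: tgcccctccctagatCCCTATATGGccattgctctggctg
Actg1, chr10:106121017-106121056 (minus strand), box 90 to 81 bases before the start: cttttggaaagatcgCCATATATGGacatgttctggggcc
The boxes printed for Acta2 (the one farther from its start) and Actc1 share the same 10 letters. A match of letters is a description of the window and not evidence of a bound site.

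The libraries held 110595399 to 151665474 counts each, so as families the actins (0.659% to 0.831% of a library) and the tropomyosins (0.279% to 0.345%) rested on many counts. Most actin counts were those of Actb, whereas Acta1 had as few as 76 counts in a QKI KD library and Actc1 at most 5 in any library. The targeted gene fell in its own knockdown, Rbpms from 40.7 to 7.21 CPM (counts scaled to a common library total, the unit of every level below), Rbfox2 from 154 to 37.3 CPM and Qk from 233 to 26.6 CPM. RBPMS KD replicate 2 stood apart from the other RBPMS KD libraries, with a chi-square per degree of freedom of 45.6 to 57.8 against them where that pair gave 9.27 and the pairs of the other groups 4.64 to 21.5. Of 8 smooth muscle markers other than actins (Myh11, Tagln, Cnn1, Myl9, Mylk, Smtn, Lmod1 and Des), 8 were above the floor of 3 counts in every group, and their summed level was 1174 to 1223 CPM in control, 777 to 862 in RBPMS KD, 634 to 693 in RBFOX2 KD and 1004 to 1046 in QKI KD. Summed levels of skeletal and cardiac muscle markers were low throughout (2.35 to 4.06 CPM over all groups). So were those of endothelial markers (5.18 to 10.8 CPM) and leukocyte markers (1.74 to 6.35 CPM). Kdr was at or under the floor in control and RBFOX2 KD, and Ptprc in control, RBFOX2 KD and QKI KD. Cdh5, by contrast, supplied most of the endothelial sum of the control libraries (mean 6.77 CPM). Leukocyte sums reached 6.10 to 6.35 CPM in QKI KD, beside 1.74 to 3.08 CPM in the other groups. Csf1r contributed to this, since it averaged 3.63 CPM after QKI depletion and only 0.405 CPM without any knockdown.

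In each of the 3 knockdowns the muscle actin genes Acta1, Acta2 and Actg2 and the tropomyosin genes Tpm1 and Tpm2, counted over all their isoforms, were lower than in control, while Tpm3 was higher. In the main fit the direction of Actb and Tpm4 against control differed between knockdowns, but their calls in RBPMS and QKI KD did not hold under every alternative. Of the 10 members, 9 had enough counts to be tested, and Actc1 did not. In RBPMS KD 8 of these 9 passed an adjusted p of 0.05 in edgeR's quasi-likelihood test, 2 higher and 6 lower, where 59.4% of all 18438 tested genes passed, 30.4% higher and 29% lower. In RBFOX2 KD 9 passed, 1 higher and 8 lower (60.3% of all genes, 30.1% higher and 30.1% lower), and in QKI KD 9 passed, 2 higher and 7 lower (66.9% of all genes, 32.9% higher and 34% lower). The libraries of 8, 9 and 9 members did not overlap with control in RBPMS, RBFOX2 and QKI KD, which was so for 61.7%, 68.6% and 72.3% of all genes. Since most genes passed in every comparison, the size of the change separates the members better than the call. An absolute log2 fold change above 1 in addition was reached by 3 members in RBPMS KD, 4 in RBFOX2 KD and 4 in QKI KD, all lower, against 4.5%, 4.73% and 9.24% of all genes that were lower by as much. The median log2 fold change over the 9 tested members was −0.46, −0.68 and −0.84 in RBPMS, RBFOX2 and QKI KD, beside 0.0085, 0.015 and 0.0070 over all tested genes. These 3 comparisons share the same control libraries and are not independent of each other. A change seen in all 3 cannot be told apart from a difference particular to the control siRNA libraries.

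**Figure D1:**
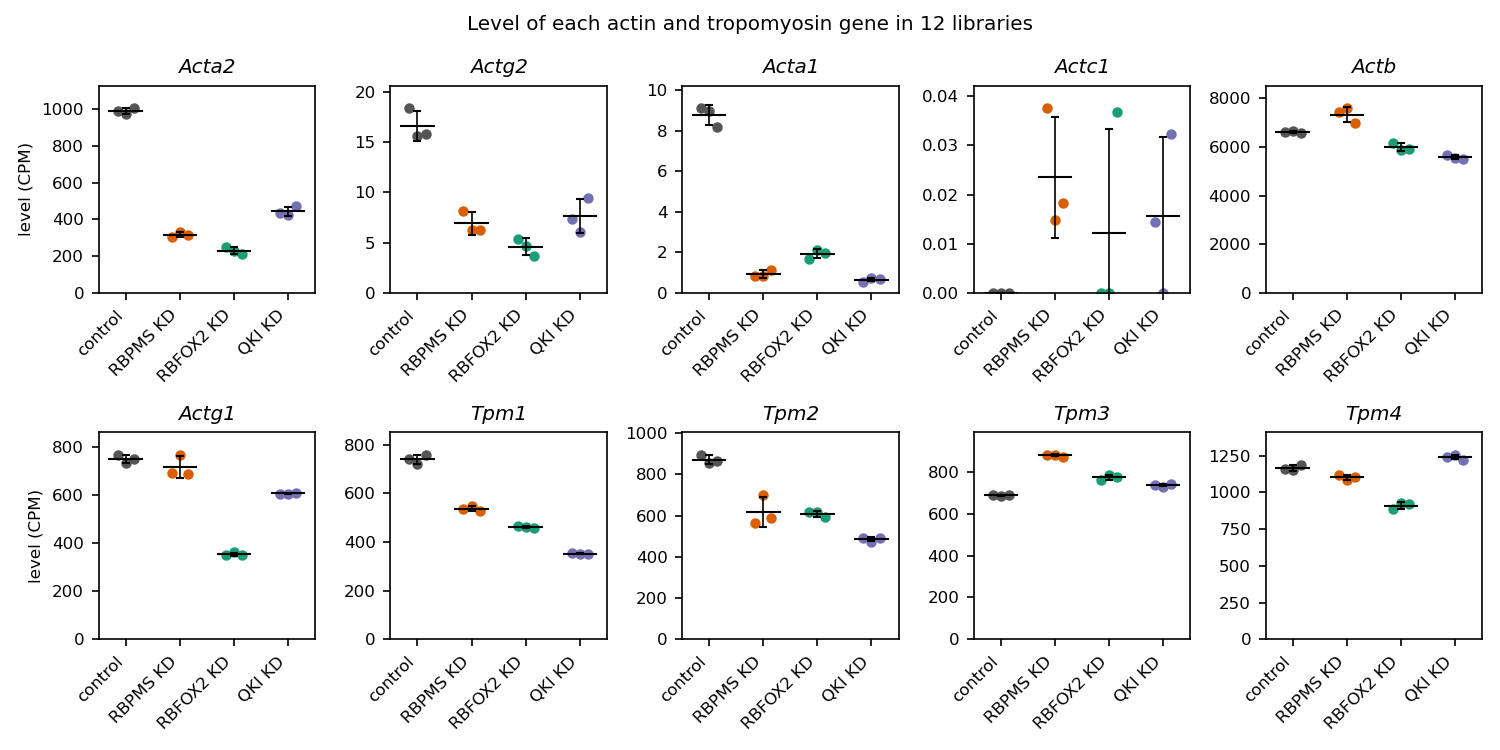
Level of each of the 10 genes (y axis, CPM on TMM-scaled library totals, each panel from 0 on its own scale) in the 3 libraries of each group. Points are libraries, long bars are group means and whiskers are 1 SD. The 3 control libraries lie above every knockdown library for Acta2, Actg2, Acta1, Tpm1 and Tpm2 and below every one for Tpm3, and Actc1 was at no more than 5 counts in any library.

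Acta2 was at 990, 973 and 1006 CPM in the control libraries. It was at 303, 330 and 313 CPM in RBPMS KD, at 250, 228 and 210 CPM in RBFOX2 KD and at 435, 425 and 473 CPM in QKI KD. The groups did not overlap, either with control or with each other, so the order of the levels was control, QKI KD, RBPMS KD and RBFOX2 KD. In RBPMS KD it retained 31.9% of the control level, in RBFOX2 KD 23.2% and in QKI KD 44.9% (adjusted p at most 4.57e-12 in edgeR's test). In these bulk libraries, fewer cells that express a gene cannot be told apart from less of its RNA in each cell. The summed smooth muscle markers given above were also lowest in RBFOX2 KD and highest in control, although Tagln made up most of that sum (687 CPM in control, 521 in RBPMS KD, 329 in RBFOX2 KD and 704 in QKI KD). Of the 8 markers, 6, 5 and 5 were lower in RBPMS, RBFOX2 and QKI KD at an adjusted p of 0.05 (edgeR), and 2 were higher in each. Among all tested genes 29%, 30.1% and 34% were lower and 30.4%, 30.1% and 32.9% higher. Myh11 had 6.48 CPM in control and 8.23, 13.4 and 7.38 CPM in RBPMS, RBFOX2 and QKI KD. Des had 9.90 CPM and then 15.6, 11.2 and 19.5 CPM, so neither of these 2 was below control. The part of these marker shifts in the Acta2 values was not tested.

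Acta1, the skeletal muscle alpha actin, was a minor transcript here and had the lowest log2 fold change of the tested members in RBPMS and QKI KD, while in RBFOX2 KD it was within its error of Acta2 (−2.11). Control libraries had 1115, 1334 and 1116 counts, or 9.11, 8.96 and 8.20 CPM. RBPMS KD libraries were at 0.799, 0.813 and 1.13 CPM, RBFOX2 KD libraries at 1.68, 2.12 and 1.98 CPM and QKI KD libraries at 0.549, 0.713 and 0.670 CPM. The highest knockdown library therefore stayed far below the lowest control library. The log2 fold change was −3.26 in RBPMS KD (SE 0.129, adjusted p 1.30e-12, edgeR), −2.18 in RBFOX2 KD (SE 0.116, adjusted p 3.91e-11) and −3.77 in QKI KD (SE 0.134, adjusted p 1.01e-13), which left 10.4%, 22% and 7.33% of the control level. The order of the knockdowns was thus not that of Acta2, since RBFOX2 KD had the lowest Acta2 and the highest Acta1 of the 3.

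Actg2, the enteric smooth muscle gamma actin, was at 18.4, 15.6 and 15.8 CPM in control. It was at 8.18, 6.28 and 6.24 CPM in RBPMS KD, 5.39, 4.66 and 3.68 CPM in RBFOX2 KD and 7.36, 6.06 and 9.45 CPM in QKI KD. All 9 knockdown libraries lay below control, with more spread between replicates than for Acta2. The log2 fold changes were −1.27 (SE 0.145, adjusted p 7.86e-07, edgeR), −1.86 (SE 0.148, adjusted p 8.26e-09) and −1.12 (SE 0.143, adjusted p 2.12e-06) in RBPMS, RBFOX2 and QKI KD. Without QKI KD replicate 2 the last of these was −0.98 and no longer past the threshold of 1, although it still passed the test.

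Actc1, the cardiac alpha actin, had 0 counts in the 3 control libraries, where a count of 0 allows up to 3. The knockdown libraries had 4, 2 and 2 counts in RBPMS KD, 0, 0 and 5 in RBFOX2 KD and 2, 0 and 4 in QKI KD. At such counts no fold change was given. The gene was in effect undetected beside the 637526 to 1027854 counts of Actb in the same libraries. Whether and how the counting shared out reads that match several actins is not stated, so the values of single actin genes are uncertain to that extent. Actbl2, an actin gene outside the 10 and close to Actb, had at most 8 counts in any library.

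Actb, the cytoplasmic beta actin, changed little, and in opposite directions. It was at 6608, 6636 and 6559 CPM in control. RBPMS KD libraries had 7429, 7597 and 6971 CPM, all above control, while RBFOX2 KD libraries at 6167, 5868 and 5934 CPM and QKI KD libraries at 5664, 5546 and 5509 CPM were all below it. The log2 fold changes were 0.15 (SE 0.0338, adjusted p 0.000914, edgeR), −0.14 (adjusted p 0.00174) and −0.24 (adjusted p 5.70e-06). In the authors' normalised table the change in RBPMS KD was 0 and that in QKI KD was 0.24 in the opposite direction (adjusted p 0.0600, limma), while with RLE size factors and with library totals only it stayed negative, at −0.24 and −0.16. That table was made with a noise filter and quantile normalisation, which gives genes of the same rank the same value. Actb ranked 5 in every control and RBPMS KD library, in the counts as in that table, and 3, 5 and 4 in the QKI KD libraries. Its normalised value was 845544 wherever it ranked 5, and 1140180 and 1028552 at ranks 3 and 4. The 0 in RBPMS KD therefore follows from equal ranks and does not measure a change in level.

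Actg1, the cytoplasmic gamma actin, fell most in RBFOX2 KD, and there it was lower than in either other knockdown when tested directly. Its control libraries were at 766, 735 and 751 CPM. RBFOX2 KD libraries were at 350, 362 and 352 CPM, below every other library, and QKI KD libraries at 605, 607 and 610 CPM were between them and control. RBPMS KD libraries at 692, 769 and 688 CPM overlapped control, since replicate 2 was above it. The log2 fold change was −1.08 in RBFOX2 KD (SE 0.0395, adjusted p 3.04e-13, edgeR) and −0.31 in QKI KD (adjusted p 2.20e-06). In RBPMS KD it was −0.07 (SE 0.039, 95% interval −0.14 to 0.0096, adjusted p 0.153), and it passed without RBPMS KD replicate 2 (−0.12, adjusted p 3.64e-04), with library totals only (−0.11, adjusted p 0.0176) and in the authors' normalised table (−0.12, adjusted p 0.0351, limma). In that table the log2 fold change of Actg1 in RBFOX2 KD was −0.97 (adjusted p 9.02e-08, limma), short of the threshold of 1. In the main fit the 2 cytoplasmic actins parted in RBFOX2 KD, where Actg1 was at 47.2% and Actb at 90.7% of control.

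**Figure D2:**
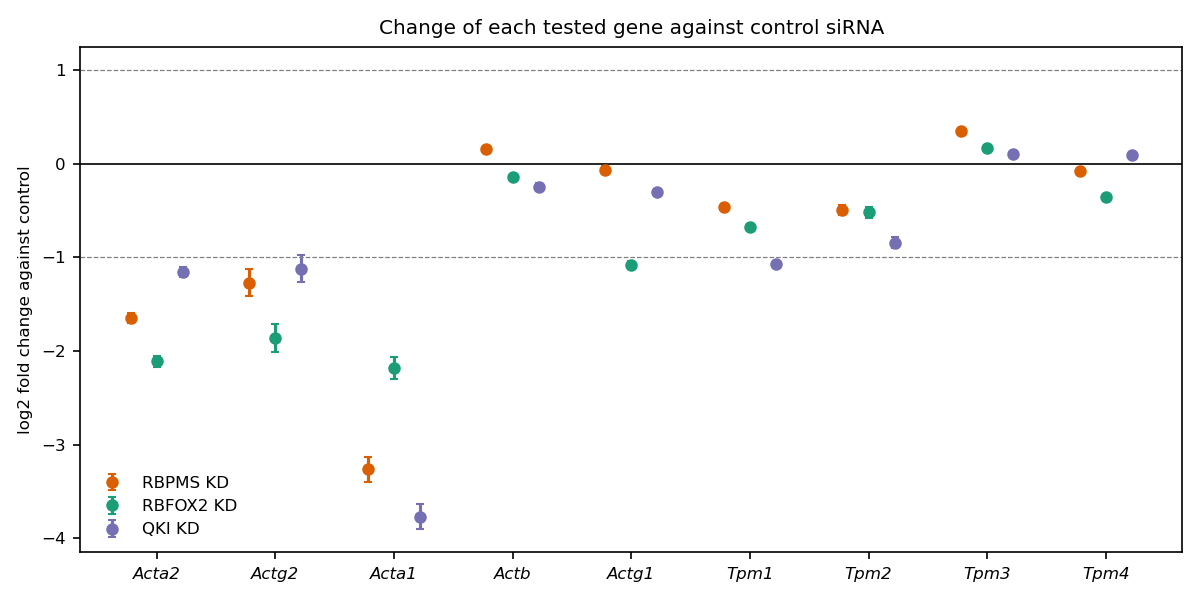
Log2 fold change against control (y axis) of the 9 tested genes in each knockdown. Points are estimates from edgeR's quasi-likelihood fit, whiskers are 1 standard error, and dashed lines mark −1 and 1. Acta1 lies lowest, at −3.77 in QKI KD, and Tpm3 is above 0 in the 3 knockdowns.

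The balance within the actin family was described by each gene's share of the actin counts of a library. These shares are not divided by transcript length and are therefore shares of counts, not of molecules. Acta2 made up 11.8% of actin counts in control, 3.77% in RBPMS KD, 3.48% in RBFOX2 KD and 6.70% in QKI KD. Actb took 78.9%, 87.6%, 91.0% and 84.0% in the same order. Actg1 held 8.97%, 8.56%, 5.39% and 9.16%, so its share fell in RBFOX2 KD and differed little from control in QKI KD, where its level had fallen along with that of Actb. The 4 muscle actin genes together made up 12.1% ± 0.213 (SD, n = 3) of actin counts in control, 3.86% ± 0.158 in RBPMS KD, 3.58% ± 0.244 in RBFOX2 KD and 6.82% ± 0.431 in QKI KD.

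**Figure D3:**
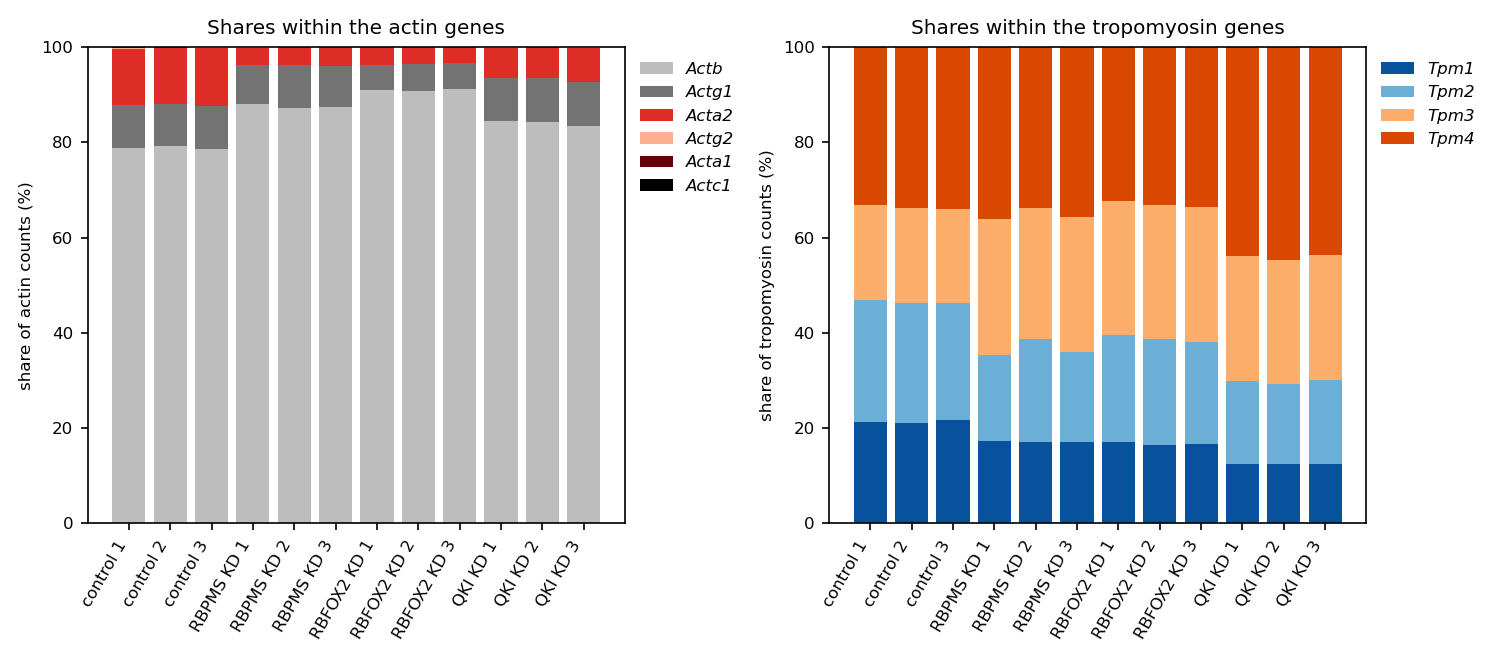
Share of each gene in the actin counts (left) and in the tropomyosin counts (right) of each of the 12 libraries, in percent of the family's counts. Acta2 narrows from 11.8% in control to 3.48% in RBFOX2 KD, and Tpm4 widens from 33.6% in control to 44.1% in QKI KD.

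The ratio of muscle to cytoplasmic actin counts was 0.135 to 0.141 in the control libraries, 0.0384 to 0.0418 in RBPMS KD, 0.0343 to 0.0395 in RBFOX2 KD and 0.0701 to 0.0790 in QKI KD. No knockdown library reached the control range, and RBPMS and RBFOX2 KD overlapped each other. The ratio was at 29.1%, 26.9% and 53.0% of control, log2 differences of −1.78, −1.90 and −0.92. In a two-sided exact permutation test each gave p 0.1, which is the smallest value that 3 against 3 libraries can give, so no ratio could pass 0.05. The summed actin level was 8367 ± 26.1 CPM in control and 8372 ± 366 CPM in RBPMS KD (exact permutation p 1), so that in this scaling the gain of Actb offset the losses of the other actin genes. It was lower in RBFOX2 KD at 6580 ± 169 CPM and in QKI KD at 6633 ± 68.5 CPM, log2 differences of −0.35 and −0.34 (exact permutation p 0.1 each), although in the authors' normalised table the sum was −0.13 in RBPMS KD and 0.10 in QKI KD.

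Among the tropomyosins, Tpm1 and Tpm2 fell in every knockdown. Tpm1 was at 739, 721 and 759 CPM in control, at 537, 547 and 526 CPM in RBPMS KD, at 467, 461 and 457 CPM in RBFOX2 KD and at 353, 351 and 352 CPM in QKI KD. The groups formed 4 separate levels with no overlap, lowest in QKI KD. The log2 fold changes were −0.46 (SE 0.0303, adjusted p 7.64e-10, edgeR), −0.68 (adjusted p 4.29e-12) and −1.07 (adjusted p 5.85e-15). In QKI KD Tpm1 was at 47.6% of control, past the threshold of 1.

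Tpm2, which encodes beta tropomyosin, was at 895, 853 and 865 CPM in control. It was at 564, 699 and 589 CPM in RBPMS KD, at 615, 618 and 592 CPM in RBFOX2 KD and at 492, 474 and 491 CPM in QKI KD. All knockdown libraries were below control, and the high value in RBPMS KD was that of replicate 2, the library that stood apart. The log2 fold changes were −0.50 (SE 0.0569, adjusted p 8.27e-07, edgeR), −0.52 (adjusted p 4.69e-07) and −0.84 (adjusted p 5.88e-10), and that in RBPMS KD was −0.60 without replicate 2.

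Tpm3 went the other way in each knockdown. It was at 693, 685 and 691 CPM in control, at 883, 885 and 876 CPM in RBPMS KD, at 763, 786 and 779 CPM in RBFOX2 KD and at 742, 732 and 743 CPM in QKI KD. Every knockdown library was above every control library, by most in RBPMS KD. The log2 fold changes of 0.35 (SE 0.0277, adjusted p 7.31e-09, edgeR), 0.17 (adjusted p 4.32e-05) and 0.10 (adjusted p 0.00433) were small beside the losses of Tpm1 and Tpm2, and the spread within a group was at most 11.8 CPM (SD, n = 3).

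Tpm4 was at 1159, 1150 and 1189 CPM in control. It was at 1122, 1085 and 1104 CPM in RBPMS KD, at 886, 925 and 922 CPM in RBFOX2 KD and at 1244, 1258 and 1225 CPM in QKI KD. The fall in RBFOX2 KD was clear of the replicate spread at −0.36 (SE 0.0305, adjusted p 2.05e-08, edgeR). The values in the other knockdowns, −0.08 in RBPMS KD (adjusted p 0.0332) and 0.09 in QKI KD (adjusted p 0.0139), were small, and each lost its call when certain single libraries were left out. For RBPMS KD these were control replicate 1 (adjusted p 0.0555), control replicate 3 (0.110) and RBPMS KD replicate 3 (0.0610), and for QKI KD control replicate 1 (0.0501), control replicate 2 (0.0571) and QKI KD replicate 2 (0.0562). The call in RBPMS KD was also lost in the authors' normalised table (adjusted p 0.0993, limma) and in a fit of the 6 libraries of the comparison (0.127), and that in QKI KD with no filter on low counts (0.0670).

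Within the tropomyosin family, Tpm1 held 21.3% of the counts in control and 17.1%, 16.7% and 12.5% in RBPMS, RBFOX2 and QKI KD. Tpm2 held 25.1%, 19.6%, 22.1% and 17.2% in the same order of groups. The share of Tpm3 was 19.9% in control and rose to 28.1%, 28.1% and 26.2%, while that of Tpm4 was 33.6%, 35.2% and 33.0% in control, RBPMS KD and RBFOX2 KD and 44.1% in QKI KD. Tpm1 and Tpm2 together thus went from 46.5% ± 0.384 (SD, n = 3) in control to 36.7% ± 1.76 in RBPMS KD, 38.8% ± 0.767 in RBFOX2 KD and 29.7% ± 0.375 in QKI KD.

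The ratio of Tpm1 and Tpm2 counts to Tpm3 and Tpm4 counts was 0.857 to 0.883 in control, 0.549 to 0.632 in RBPMS KD, 0.616 to 0.657 in RBFOX2 KD and 0.414 to 0.429 in QKI KD. Control and QKI KD were each clear of all other groups, and RBPMS and RBFOX2 KD overlapped. The ratio was at 66.9%, 73.1% and 48.7% of control, log2 differences of −0.58, −0.45 and −1.04 (exact permutation p 0.1 each, the smallest possible). The summed tropomyosin level fell less, by 0.14, 0.33 and 0.30 on the log2 scale (exact permutation p 0.1 each), with control at 3466 ± 50.2 CPM, RBPMS KD at 3138 ± 66.7 CPM, RBFOX2 KD at 2757 ± 30.0 CPM and QKI KD at 2819 ± 10.9 CPM. The lowest mean ratio of muscle actin was in RBFOX2 KD and the lowest ratio of tropomyosin in QKI KD.

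**Figure D4:**
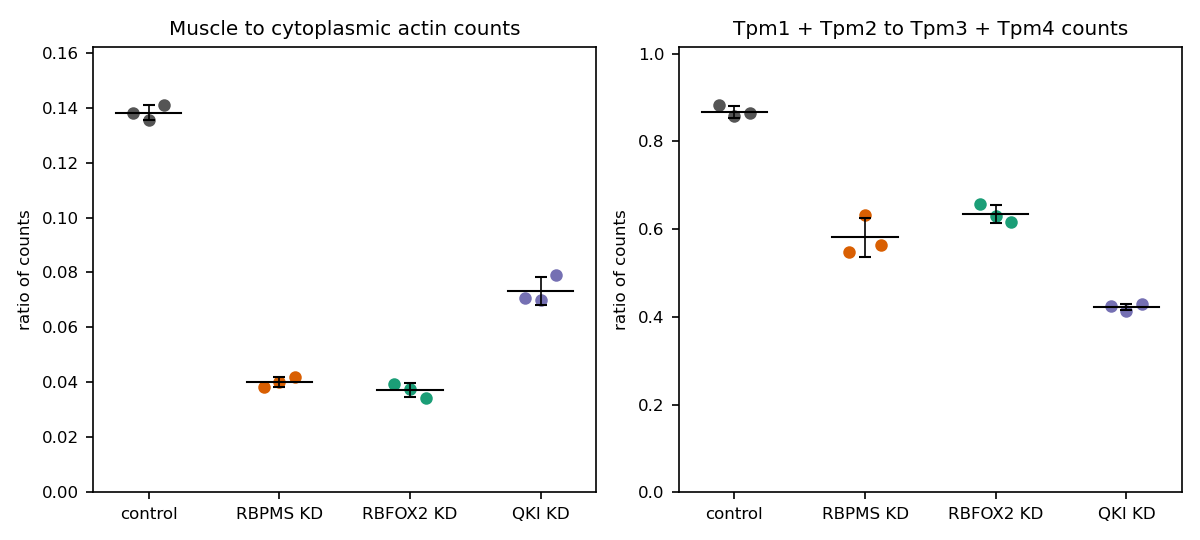
Ratio of muscle actin counts (Acta1, Acta2, Actc1, Actg2) to cytoplasmic actin counts (Actb, Actg1) on the left and of Tpm1 and Tpm2 counts to Tpm3 and Tpm4 counts on the right, both axes from 0. Points are libraries, long bars are means and whiskers are 1 SD. The actin ratio is lowest in RBPMS and RBFOX2 KD (0.0343 to 0.0418) and the tropomyosin ratio in QKI KD (0.414 to 0.429).

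The knockdowns were also compared directly in the same fit. Between RBPMS and RBFOX2 KD 8 of the 9 tested members differed at an adjusted p of 0.05 (56.7% of all tested genes did), between RBPMS and QKI KD 8 (61% of all genes), and between RBFOX2 and QKI KD 9 (68.5% of all genes). The same numbers of members had libraries that did not overlap, against 61.5%, 63.8% and 75.2% of all genes. Differences above 1 in size were seen for 2 members between RBPMS and RBFOX2 KD (7.52% of all genes) and 1 between RBFOX2 and QKI KD (18.4%), while between RBPMS and QKI KD (12.2%) the members stayed within 0.61. They were those of Actg1, which was higher in RBPMS than in RBFOX2 KD by 1.01 (SE 0.0394, adjusted p 1.50e-12, edgeR), and that of Acta1, which was lower in RBPMS than in RBFOX2 KD by −1.08 (adjusted p 3.73e-06) and higher in RBFOX2 than in QKI KD by 1.59 (adjusted p 2.80e-08). Actg1 was also lower in RBFOX2 than in QKI KD (−0.78, adjusted p 1.20e-11). Acta2 was higher in QKI KD than in RBFOX2 KD (−0.95, RBFOX2 minus QKI, adjusted p 6.67e-11) and than in RBPMS KD (−0.49, RBPMS minus QKI, adjusted p 4.61e-07). Tpm1 was higher in RBPMS KD than in QKI KD by 0.61 (adjusted p 1.68e-11) and in RBFOX2 KD than in QKI KD by 0.39 (adjusted p 3.68e-09).

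The direct comparisons that did not pass were those of Tpm2 between RBPMS and RBFOX2 KD, at 0.02 with a 95% interval of −0.090 to 0.13 (adjusted p 0.767), and of Actg2 between RBPMS and QKI KD, at −0.15 with an interval of −0.44 to 0.14 (adjusted p 0.408). Both changed sign when 1 library was left out. Tpm2 became −0.078 (adjusted p 0.0355) without RBPMS KD replicate 2, and Actg2 became 0.030 (adjusted p 0.877) without QKI KD replicate 3. The difference of Acta1 between RBPMS and QKI KD, 0.51 (adjusted p 0.0115), rested on under 130 counts a library and did not pass without RBPMS KD replicate 3 (0.33, adjusted p 0.0833) or QKI KD replicate 1 (0.39, adjusted p 0.0671). The small differences between RBFOX2 and QKI KD of Actb (0.10, adjusted p 0.0116) and Tpm3 (0.07, adjusted p 0.0316) also lost their calls, that of Actb without RBFOX2 KD replicate 1 or QKI KD replicate 2 or 3 (adjusted p 0.0525 to 0.0814) and that of Tpm3 without RBFOX2 KD replicate 2 or 3 or any 1 of the QKI KD libraries (adjusted p 0.0870 to 0.181). With library totals only these of Acta1 (adjusted p 0.0518), Actb (0.0634) and Tpm3 (0.220) did not pass either, nor did Tpm3 with RLE size factors (0.0851).

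Of 4 transcriptional regulators of these genes, 1 was higher and 3 were lower in RBPMS KD, 2 were lower in RBFOX2 KD, and 1 was higher and 2 were lower in QKI KD. Among all tested genes 59.4%, 60.3% and 66.9% passed in RBPMS, RBFOX2 and QKI KD, with 30.4%, 30.1% and 32.9% higher and 29%, 30.1% and 34% lower, and these shares are the background for this and the following gene lists. Srf was at 98.0 ± 1.74 CPM (SD, n = 3) in control, 70.6 ± 3.73 in RBPMS KD, 33.8 ± 0.946 in RBFOX2 KD and 51.6 ± 0.599 in QKI KD. The log2 fold changes were −0.47, −1.54 and −0.93 (SE 0.0392, 0.0404 and 0.0396, adjusted p at most 1.42e-08, edgeR), and RBFOX2 KD was lower than QKI KD by 0.61 on the log2 scale (adjusted p 4.15e-10) and lower than RBPMS KD (1.06, RBPMS minus RBFOX2, adjusted p 1.07e-12). Mrtfa, which encodes an actin-responsive coactivator of SRF, fell by 0.30, 0.35 and 0.39 in RBPMS, RBFOX2 and QKI KD (adjusted p at most 1.97e-06). Its relative Mrtfb was at −0.27 (adjusted p 0.0446), −0.12 (adjusted p 0.347) and −0.21 (adjusted p 0.0988). Myocd, the smooth and cardiac muscle coactivator, was at 0.16 (adjusted p 0.0249), 0.04 (adjusted p 0.602) and 0.78 (adjusted p 2.01e-09).

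Thin filament partners were counted next, from tropomodulins, leiomodins, caldesmon, calponins and troponins. Of 15 such genes 13 were tested, and 1 was higher and 7 were lower in RBPMS KD, 2 higher and 6 lower in RBFOX2 KD and 7 lower in QKI KD with the other 6 not passing, with median log2 fold changes of −0.20, −0.16 and −0.37. Since 8, 8 and 7 of 13 passed, the number that passed was near that of all genes in RBPMS and RBFOX2 KD and below it in QKI KD (66.9%). Lmod1, a leiomodin that nucleates actin filaments in smooth muscle, had a control level of 50.3 ± 2.55 CPM against 22.1 CPM in RBPMS KD, 29.4 CPM in RBFOX2 KD and 9.49 CPM in QKI KD. Its loss in QKI KD was −2.40 (SE 0.0534, adjusted p 2.59e-16, edgeR) and in RBPMS KD −1.19 (adjusted p 2.97e-12). Cald1, the actin- and tropomyosin-binding caldesmon, went from 613 CPM in control to 378 CPM in RBPMS KD, 400 CPM in RBFOX2 KD and 269 CPM in QKI KD (log2 fold changes −0.70, −0.62 and −1.19, adjusted p at most 8.21e-09). Tmod1, which caps pointed ends and binds tropomyosin, went from a control level of 1.91 CPM to 0.951 CPM in RBPMS KD, 0.947 CPM in RBFOX2 KD and 1.05 CPM in QKI KD (adjusted p at most 1.35e-05). Cnn1, a calponin, went from 6.43 CPM to 1.21 CPM in RBFOX2 KD and to 2.59 CPM in RBPMS KD.

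Of 15 genes for monomer-binding, severing and capping proteins, 11, 12 and 13 were lower and 2, 1 and 1 higher in RBPMS, RBFOX2 and QKI KD, where 29%, 30.1% and 34% of all genes were lower, and the medians were −0.20, −0.29 and −0.40. In QKI KD 4 of them were past −1, and there the capping protein subunits Capza1 (288 to 94.7 CPM, log2 fold change −1.60, adjusted p 6.69e-17, edgeR) and Capzb (361 to 121 CPM, −1.57, adjusted p 7.47e-16) and the twinfilin Twf2 (37.3 to 14.4 CPM, −1.38) fell, as did Cap2. Cap2, a cyclase-associated protein at 2.43 CPM in control, was at 1.25 CPM in RBPMS KD and at 1.07 CPM in both RBFOX2 and QKI KD (adjusted p at most 4.27e-06). Among 11 formins, which elongate unbranched filaments, 9 were lower in QKI KD and 1 was higher, including Daam2 (−1.62, adjusted p 2.58e-11) and Diaph2 (−1.36, adjusted p 4.96e-11), where 34% and 32.9% of all genes were lower and higher. In RBPMS KD 4 formins were lower and 1 higher, and in RBFOX2 KD 2 were lower and 3 higher, so the 5 of 11 that passed in each were a smaller share than the 59.4% and 60.3% of all genes. The 10 genes of the CCT chaperonin, which folds actin, and of actin maturation gave 6, 4 and 4 higher and 1, 3 and 3 lower, so that 7 of 10 passed in each knockdown, near the 59.4%, 60.3% and 66.9% of all genes, and none reached a log2 fold change of 1.

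The Arp2/3 complex, which nucleates branched filaments, had 3, 7 and 6 of 9 genes lower and 2, 1 and 2 higher in RBPMS, RBFOX2 and QKI KD, where 29%, 30.1% and 34% of all genes were lower, and the 5 of 9 that passed in RBPMS KD were near the 59.4% of all genes. In RBFOX2 KD Arpc1b went from 620 to 229 CPM (log2 fold change −1.44, adjusted p 1.88e-14, edgeR) and Arpc4 from 415 to 164 CPM (−1.34, adjusted p 2.19e-14). In QKI KD Actr2 went from 1112 to 515 CPM (−1.11, adjusted p 1.08e-14). Against these, the subunit gene Arpc5 had a control level of 59.5 ± 0.285 CPM (SD, n = 3) against 398 ± 13.9 CPM in RBPMS KD, 440 ± 10.7 CPM in RBFOX2 KD and 376 ± 12.7 CPM in QKI KD, log2 differences of 2.74, 2.89 and 2.66 (adjusted p at most 9.96e-18). The direct differences of Arpc5 between knockdowns were −0.15 (RBPMS minus RBFOX2), 0.08 (RBPMS minus QKI) and 0.23 (RBFOX2 minus QKI). The separation of Arpc5 was therefore between the control siRNA libraries, which the 3 comparisons share, and all others. Its paralogue Arpc5l had 10.9 CPM in control beside 11.6, 11.8 and 12.7 CPM after knockdown.

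**Figure D5:**
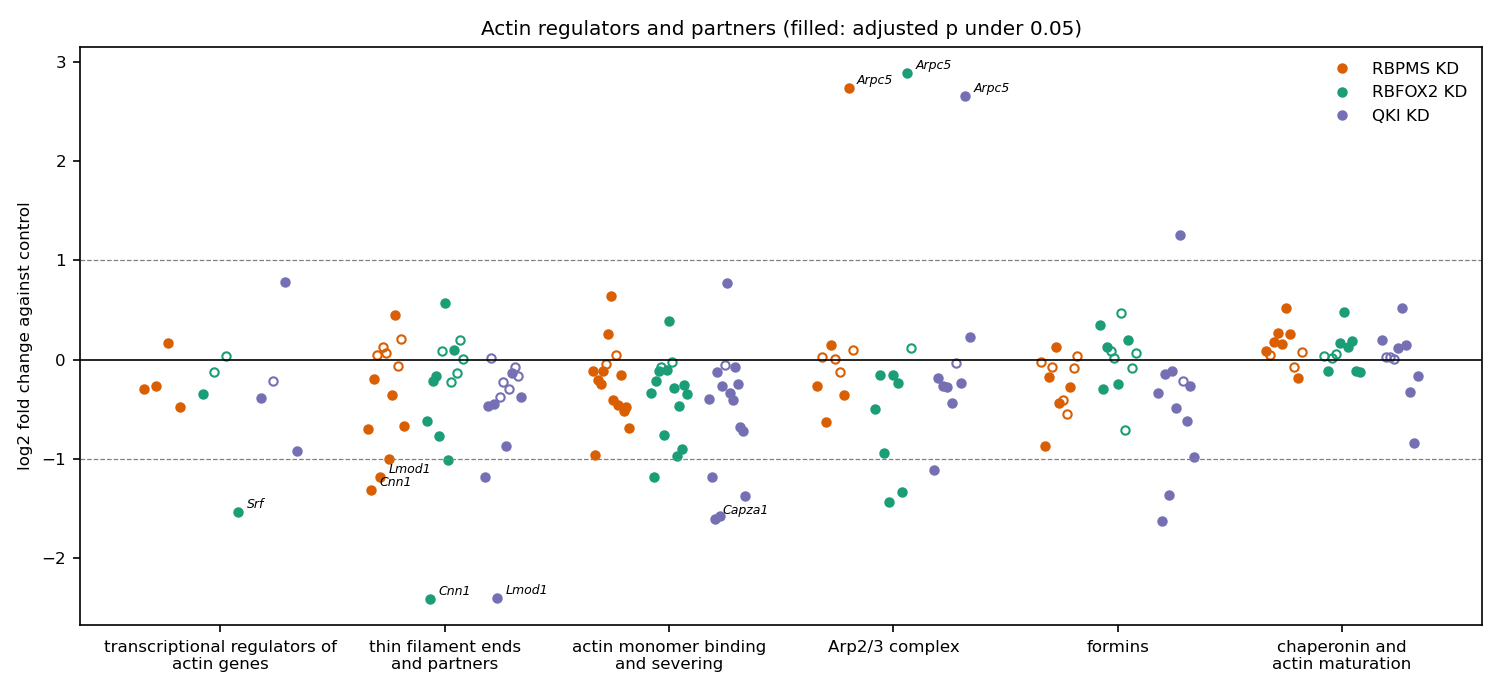
Log2 fold change against control (y axis) of every tested gene in 6 lists of actin regulators and partners, by knockdown. Each point is 1 gene, filled where the adjusted p was under 0.05, and dashed lines mark −1 and 1. Arpc5 stands apart at 2.74, 2.89 and 2.66, while Srf, Cnn1, Lmod1 and Capza1 are among the low points.

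The pattern of Acta2 and of Tpm1 over the 12 libraries was compared with that of 4743 other genes whose mean level was 50 CPM or more. The genes most like Acta2 by Pearson's r of log2 CPM were Maz (0.993), Txndc11 (0.992) and Serinc1 (0.988). Their changes were smaller than those of Acta2, for example −0.38, −0.47 and −0.28 for Maz and −0.66, −0.82 and −0.40 for Serinc1 in RBPMS, RBFOX2 and QKI KD. Those most like Tpm1 were Fzd6 (0.994), Amotl2 (0.991) and Sri (0.991), with Fzd6 at −0.74, −0.95 and −1.54. Between members, Tpm1 and Tpm2 gave r of 0.957, Acta2 and Tpm1 0.589, and Acta2 and Tpm3 −0.714. These values describe 12 libraries in 4 groups, which share the control and the scaling, and carry no test.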

How the data were processed

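Poly(A)-selected RNA was sequenced from both ends of strand-specific libraries. The authors deposited raw counts per gene symbol, made with STAR (2.5.2a in the submitters' processing notes) on mRatBN7.2 and featureCounts, and a normalised signal for 22320 genes, made with noisyR and quantile normalisation. Strand use and multi-matching reads are not described. Library totals were unequal, so the equal-depth subsampling in the study's methods is not seen in this table. Of values from 1 to 19, 68.1% were even; whether mates were counted separately is not stated, and halved counts were tried.

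Groups came from sample titles. edgeR 4.0.16 (TMM, filterByExpr, quasi-likelihood F test, two-sided, Benjamini-Hochberg over 18438 genes), tested on simulated data, was fitted to 12 libraries without a block. Levels are CPM on TMM-scaled totals, standard errors the log2 fold change over the root of F, and intervals normal approximations from these. Alternatives were DESeq2 1.42.0, limma 3.58.1 on log2(value + 1), other scalings and filters, a block and omission of each library. P-values set a difference between groups against the spread between these samples of 1 cell line.

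The members and lists were chosen with earlier results of these data known. Named genes were the members, the siRNA targets, the 3 genes most like Acta2 and Tpm1, the 4 regulators and, per list and knockdown, up to 3 highest and 3 lowest past both thresholds at 1 CPM or more. Marker lists are given as sums. Actbl2, Arpc5l and the single markers Tagln, Myh11, Des, Kdr, Ptprc, Cdh5 and Csf1r, outside this rule, were named after their values were seen.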

Additional observations from a re-analysis of the deposited data

Results flagged for a closer look

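Actb and Tpm4 moved in opposite directions in different knockdowns, and the difference between knockdowns was tested in edgeR's quasi-likelihood fit itself. Actb was above control in RBPMS KD and below it in the others, so that RBPMS KD exceeded RBFOX2 KD by 0.29 on the log2 scale (adjusted p 1.24e-06) and QKI KD by 0.40 (adjusted p 1.91e-08), with 3 of 3 RBPMS KD libraries above all libraries of the other knockdowns. Tpm4 was above control in QKI KD and below it in the others, with a difference of −0.17 for RBPMS minus QKI KD (adjusted p 1.09e-04) and of −0.45 for RBFOX2 minus QKI KD (adjusted p 6.56e-10), again with no overlap between the libraries. The calls of Tpm4 against control in RBPMS KD (−0.08) and in QKI KD (0.09) did not hold under every alternative. The changes of Actb against control were at most 0.24 in size, and the direction in QKI KD was the opposite in the authors' normalised table. In that table Actb was at 845544 in each RBPMS KD library and at 1140180, 845544 and 1028552 in QKI KD, so RBPMS KD was not above QKI KD there.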

How the results depend on the processing

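The number of members that passed the test was within 1.5 times the main number under every alternative fitted, and so was the number past a log2 fold change of 1. Leaving out single libraries gave 7 to 9 members in RBPMS KD, 9 in RBFOX2 KD and 8 to 9 in QKI KD that passed, and 3, 4 and 3 to 4 past 1. With the replicate number as a block these were 8, 9 and 9 passing and 3, 4 and 4 past 1, so the block changed no such number. The labels give no pairing of libraries beyond the replicate number. Of 18 correlations between the deviations of same-numbered libraries from their group means, 2 were above 0.1 (range −0.28 to 0.21). With 3 libraries in a group, this cannot exclude a shared batch. Of the fold changes of members against control, 391 alternative values kept direction and call, 10 lost the call, 3 gained it and 1 reversed, and between knockdowns 253 kept both, 14 lost the call and 3 reversed. Actb in QKI KD was 0.24 in the authors' normalised table, which sets each gene's value by its rank, and Actb lies among the highest ranks. The difference of Tpm2 between RBPMS and RBFOX2 KD was −0.078 with library totals only and −0.078 without RBPMS KD replicate 2 (−0.078 to 0.084 over single omissions), and that of Actg2 between RBPMS and QKI KD was 0.030 without QKI KD replicate 3 (−0.29 to 0.030). In the authors' normalised table the log2 ratio of muscle to cytoplasmic actin was −1.65, −1.60 and −1.23 in RBPMS, RBFOX2 and QKI KD, the tropomyosin ratio in QKI KD −1.09, the summed actin level −0.13, −0.50 and 0.10, and the summed tropomyosin level −0.19, −0.19 and −0.15. With library totals only the summed actin level was −0.29 in RBFOX2 KD and −0.25 in QKI KD, and the summed tropomyosin level −0.19, −0.28 and −0.21. The cause of these shifts was not tested. Across single omissions the actin ratio ranged from −1.81 to −1.75, −1.94 to −1.84 and −0.97 to −0.89, the tropomyosin ratio from −0.64 to −0.54, −0.48 to −0.43 and −1.05 to −1.02, the summed actin level from −0.028 to 0.034, −0.37 to −0.33 and −0.34 to −0.33, and the summed tropomyosin level from −0.16 to −0.13, −0.34 to −0.32 and −0.31 to −0.29. Values divided by transcript length were planned and not run, since no transcript lengths were used here. Depth limits Actc1, Acta1 in the knockdowns and genes near 1 CPM.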
